A study of Arabidopsis thaliana with 20 samples.

Results

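The 5 genes described here encode proteins of the plastid ribosome. PRPL34 (AT1G29070), PRPL5 (AT4G01310) and PRPL17 (AT3G54210) belong to its large subunit, and PRPS10 (AT3G13120) and PRPS6 (AT1G64510) to its small subunit. They were chosen by locus, as genes that the platform's annotation gives as the sole gene of a feature, and each had 1 such feature. They thus account for 5 of the 3439 features on the array, of which 692 had 1 gene, and all 5 were measured above 0 on all 20 arrays.

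The samples were total RNA of Arabidopsis thaliana, ecotype Wassilevskija, from the wild type (WT, 10 arrays) and from a mutant titled hcf145 (10 arrays), which the labels describe as impaired in building photosystem I. The labels give neither tissue, age nor growth conditions. The source names of the mutant samples read gun5 in place of hcf145, so the group is called hcf145 after the titles only. HCF145 and the gene of gun5, CHLH, were each the sole gene of 0 features. One feature with several genes held 1 of them, and since its signal cannot be assigned to that gene the mutation was not checked.

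Plastids carry ribosomes of the bacterial type, which translate the messages of the plastid genome, among them those of the photosystem reaction centres. Most proteins of these ribosomes are encoded in the nucleus, made in the cytosol and imported, and the rest are encoded in the plastid. HCF145 is known as a nuclear factor needed for the plastid transcript that carries psaA, psaB and rps14. The last of these genes encodes a small-subunit protein of the same ribosome, whereas the 5 genes here are all nuclear.

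The total deposited intensity of an array lay between 3319 and 3640. Each of the 20 arrays resembled the array of adjacent number (1 with 2, 3 with 4, and so on) more than any other of its group, with a consensus correlation of 0.66. Adjacent arrays were therefore averaged and compared as 5 against 5 averages, and a fit that counts the 20 arrays separately gives p-values that are too small. Nothing in the labels says that the samples came from separate plants, or whether adjacent arrays share an extract or a hybridisation. The p-values of the comparison of averages thus measure the spread between averages, which may be technical. The number of averages limits the precision of every value. In the deposited values the median feature differed by -0.32 (log2, hcf145 minus WT), against -0.06 after quantile normalisation, and differences below are on the normalised log2 scale unless stated.

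No plastid ribosomal protein gene passed the test between hcf145 and WT. In limma on the averages, 0 of the 5 had an adjusted p under 0.05, where 7.39% of the 3287 tested features did, and 2 of the 5 (PRPL34 and PRPL5) had an unadjusted p under 0.05, where 26.0% of features did. The difference was above 0 for 4 of the 5, against 46.3% of all features. The median difference of the 5 was 0.28, and that of all features -0.06. With the 20 arrays counted separately, 2 of the 5 passed, both higher in hcf145, where 29.1% of features passed and 13.2% passed as higher. In bulk RNA, fewer cells of a type and less RNA per cell cannot be told apart.

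**Figure D1:**
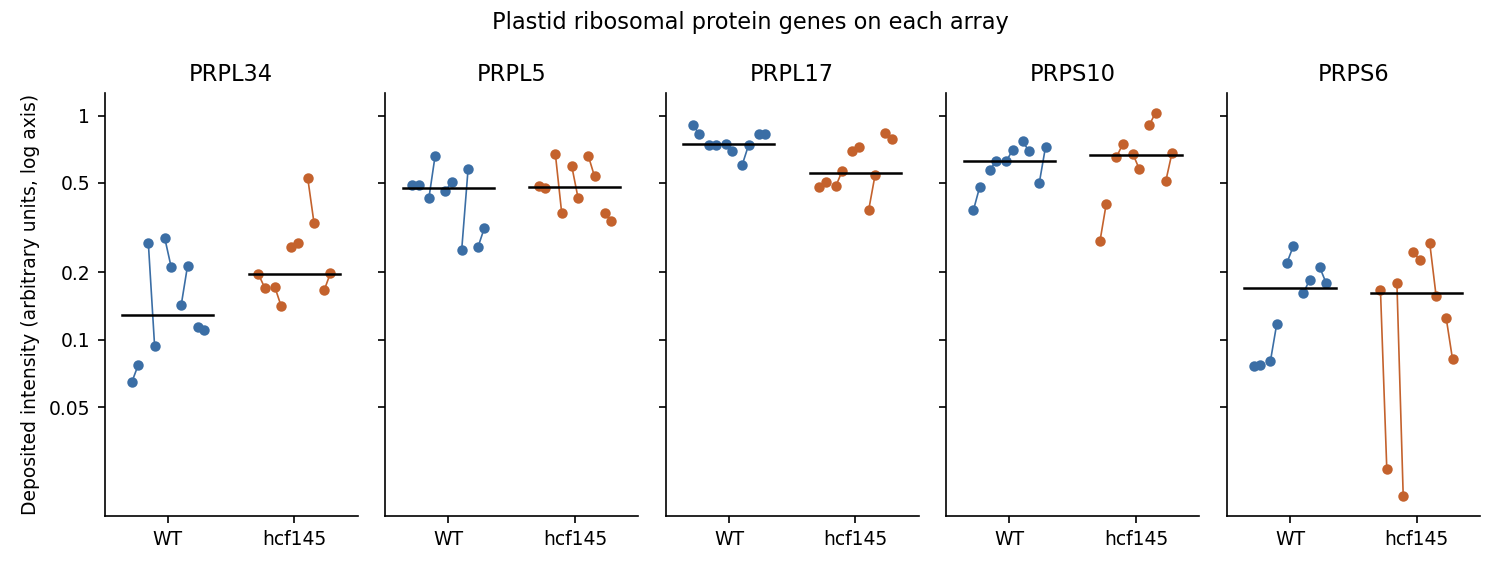
Deposited intensity (log axis, arbitrary units) of each plastid ribosomal protein gene on the 10 WT (blue) and 10 hcf145 (orange) arrays; lines join arrays of adjacent number and black bars are group medians. PRPL34 has its lowest value in WT at 0.0647, and 2 hcf145 arrays of PRPS6 fall to 0.0266 and 0.0200.

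Of the large subunit, PRPL34 showed the largest difference of the 5. The protein is the plastid form of bacterial L34, a very small, basic protein that lies against the RNA of the large subunit. Its deposited intensity in WT ran from 0.0647 through a median of 0.128 to 0.284, and in hcf145 from 0.141 through 0.197 to 0.528. All 10 hcf145 arrays lay above the WT median, but the 2 groups of arrays overlapped, as they did for all 5 genes, where 4.23% of features had no overlap. The WT averages stood at -3.96, -2.89, -2.56, -2.75 and -3.03 in the order of their numbers, and the hcf145 averages at -2.29, -2.31, -1.77, -1.25 and -2.25. Every hcf145 average was thus above every WT average, which held for 10.3% of features in one direction or the other. The WT average of -2.89 joined unlike arrays, array 3 at -2.10 and array 4 at -3.68. Array 3 alone lay above the hcf145 averages of -2.29, -2.31 and -2.25. The WT average of arrays 1 and 2 was the lowest and the hcf145 average of arrays 7 and 8 the highest.

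The difference of PRPL34 was 1.06 ± 0.31 (SE, n = 5 averages per group), a 2.09-fold difference with a 95% interval of 0.38 to 1.75 on the log2 scale. With adjustment over all features it missed the threshold (limma adjusted p = 0.0614), and passed it with 20 arrays counted separately (limma adjusted p = 0.00349). It also passed with a replicate block, array weights, features without missing values or a pseudocount (limma adjusted p = 0.0301, 0.0344, 0.0443 and 0.0491), and with no other alternative fit, nor with any average left out. The exact permutation test for this gene alone gave p = 0.00794, the smallest that 5 against 5 averages can give. In the deposited values without scaling, the difference was 0.68 ± 0.37 (SE, limma adjusted p = 0.233), over 1.5 times smaller. The median feature differed by -0.32 in those values, against -0.06 after normalisation. As deposited the averages overlapped, and arrays 3 and 4 stood at a mean intensity of 0.182 in WT and 0.157 in hcf145. The feature was dim, with 18.5% of tested features dimmer. Its adjacent arrays differed by 0.44 on average, against 0.87 for PRPS6, 0.39 for PRPL5, 0.29 for PRPS10 and 0.16 for PRPL17. The SE was near that of PRPS10 (0.30), above those of PRPL17 (0.24) and PRPL5 (0.21), and below that of PRPS6 (0.42). Whether dimness made its log values less certain was not tested.

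PRPL5 is the plastid form of bacterial L5, which binds the 5S ribosomal RNA in the large subunit. Its intensity ran from 0.252 through a median of 0.476 to 0.663 in WT and from 0.338 through 0.480 to 0.676 in hcf145. The deposited medians were nearly equal, and 5 of 10 hcf145 arrays lay above the WT median. After normalisation the WT averages were -1.28, -1.12, -1.36, -1.63 and -1.60, and the hcf145 averages -0.97, -0.74, -0.83, -0.74 and -1.35. The hcf145 average exceeded the WT average of the same number in 5 of 5 cases, which held for 16.3% of features, although the groups overlapped through the hcf145 average of arrays 9 and 10. The numbers are not known to pair the groups, so counts by number, here and below, are descriptions only.

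The difference of PRPL5 was 0.47 ± 0.21 (SE, n = 5 averages per group; limma adjusted p = 0.183), or 1.39-fold, with a 95% interval of 0.01 to 0.93. Counted as 20 arrays it passed narrowly (limma adjusted p = 0.0421), and the exact permutation test for the gene alone gave an unadjusted p of 0.0238. In the deposited values the difference was 0.18 ± 0.25 (SE, limma adjusted p = 0.657), where the median feature differed by -0.32. The size depended on which array of each pair was read. The first arrays alone gave 0.86 ± 0.27 (SE, limma adjusted p = 0.0843), and the second arrays alone 0.08 ± 0.22 (SE, limma adjusted p = 0.860). In WT, array 7 stood at 0.252 and array 8 at 0.575, and in hcf145, array 3 stood at 0.676 and array 4 at 0.369.

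PRPL17, the plastid form of bacterial L17, a large-subunit protein near the exit of the peptide tunnel, was the member with the least spread between adjacent arrays. Its intensity ran from 0.603 through a median of 0.745 to 0.908 in WT and from 0.380 through 0.554 to 0.833 in hcf145. In the deposited values 2 of 10 hcf145 arrays lay above the WT median. After normalisation the WT averages were -0.45, -0.61, -0.64, -0.76 and -0.14, and the hcf145 averages -0.94, -0.67, -0.35, -1.11 and -0.26. The groups overlapped over most of their range, and the hcf145 averages spread more widely (SD 0.37 against 0.24). The difference was -0.15 ± 0.24 (SE, n = 5 averages per group; limma adjusted p = 0.721), with a 95% interval of -0.66 to 0.37. Without scaling it was -0.39 ± 0.23 (SE, limma adjusted p = 0.274). The shift of all features in the deposited values, -0.32, was nearly as large.

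Of the small subunit, PRPS10 is the plastid form of bacterial S10, a protein of the head of the subunit that in Escherichia coli also takes part in transcription antitermination. Its intensity ran from 0.378 through a median of 0.626 to 0.766 in WT and from 0.275 through 0.663 to 1.03 in hcf145. The WT averages were -1.47, -0.95, -0.79, -0.63 and -0.56, and the hcf145 averages -1.47, -0.30, -0.52, -0.03 and -0.68. Arrays 1 and 2 gave the lowest average in both groups. The groups overlapped, with 3 of the 5 hcf145 averages above the highest WT average. The hcf145 average was higher in 3 of 5 numbers, and the difference was 0.28 ± 0.30 (SE, n = 5 averages per group; limma adjusted p = 0.574), with a 95% interval of -0.36 to 0.93. In the deposited values, where the median feature differed by -0.32, it was 0.03. After normalisation it was nearly the same from the first arrays (0.27) and from the second (0.29). Leaving out 1 average, it ran from 0.13 without WT arrays 1 and 2, and 0.14 without hcf145 arrays 7 and 8, to 0.50 without hcf145 arrays 1 and 2.

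PRPS6, the plastid form of bacterial S6, a protein of the platform of the small subunit, was the least precise of the 5. Its intensity ran from 0.0760 through a median of 0.170 to 0.260 in WT and from 0.0200 through 0.162 to 0.269 in hcf145. The WT averages were -3.84, -3.56, -2.60, -2.76 and -2.21, and the hcf145 averages -3.69, -3.68, -1.93, -2.25 and -3.08. In both groups the averages of arrays 1 to 4 were the lowest. The groups covered nearly the same range, and the difference was 0.07 ± 0.42 (SE, n = 5 averages per group; limma adjusted p = 0.934), with a 95% interval of -0.86 to 0.998.

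The direction of PRPS6 was not settled. The first arrays of the pairs alone gave 0.88 ± 0.36 (SE, limma adjusted p = 0.167) and the second arrays -0.74 ± 0.61 (SE, limma adjusted p = 0.489). The opposite signs came with hcf145 arrays 2 and 4, at 0.0266 and 0.0200, beside 0.167 and 0.179 on the adjacent arrays 1 and 3. In the deposited values the difference was -0.32 ± 0.46 (SE), where the median feature also differed by -0.32. Only 11.3% of tested features were dimmer than this one.

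**Figure D2:**
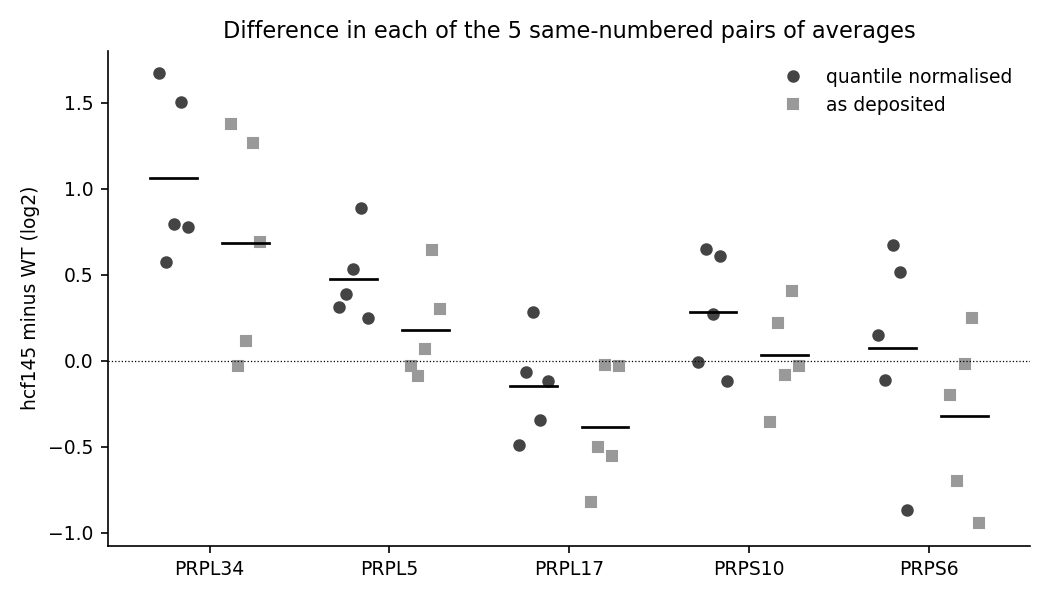
Difference between the hcf145 and the WT average of the same number (log2), for the 5 numbers and each gene, after quantile normalisation (circles) and as deposited (squares); bars are means of 5. After normalisation all 5 points of PRPL34 and PRPL5 are above 0, and those of PRPS6 run from -0.87 to 0.67.

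Across the subunits, the 3 large-subunit genes spanned -0.15 to 1.06 and the 2 small-subunit genes, at 0.07 and 0.28, lay inside that span. The median of the large-subunit genes was 0.47 and the mean of the small-subunit genes 0.18. In the deposited values these became 0.18 and -0.15, where the median of all features was -0.32. The subunits therefore did not separate by direction or size, and the spread within the large subunit exceeded the distance between the subunits. With 3 genes against 2, this is a description and was not tested.

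Ratios of members within an array do not move with a scaling factor common to that array. From the deposited values, the log2 ratio of PRPL34 to PRPL17 was -2.44 ± 0.82 in WT and -1.37 ± 0.76 in hcf145 (SD, n = 5 averages each). It was higher in hcf145 in 5 of 5 numbers, although the 2 groups of averages overlapped. PRPL34 also stood higher relative to PRPS6 in 5 of 5 numbers, and relative to PRPL5 in 5 of 5 numbers, by 0.50 on average. Relative to PRPS10 it was higher in 4 of 5 numbers, by 0.65. This was not particular to PRPL34, since PRPL5 was higher relative to PRPL17 and to PRPS6 in 5 of 5 numbers, by 0.56 and 0.50. Ratios that share a gene are not separate observations. Those to PRPS6 also include hcf145 arrays 2 and 4, where PRPS6 stood at 0.0266 and 0.0200, beside 0.167 and 0.179 on arrays 1 and 3. How far the counts for these ratios rest on arrays 2 and 4 was not tested. Between the small-subunit genes, the ratio of PRPS10 to PRPS6 was 2.06 ± 0.51 in WT and 2.41 ± 0.77 in hcf145 (SD, n = 5 averages each), higher in 3 of 5 numbers. All 10 ratios that 5 genes give overlapped between the groups, and none was tested.

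**Figure D3:**
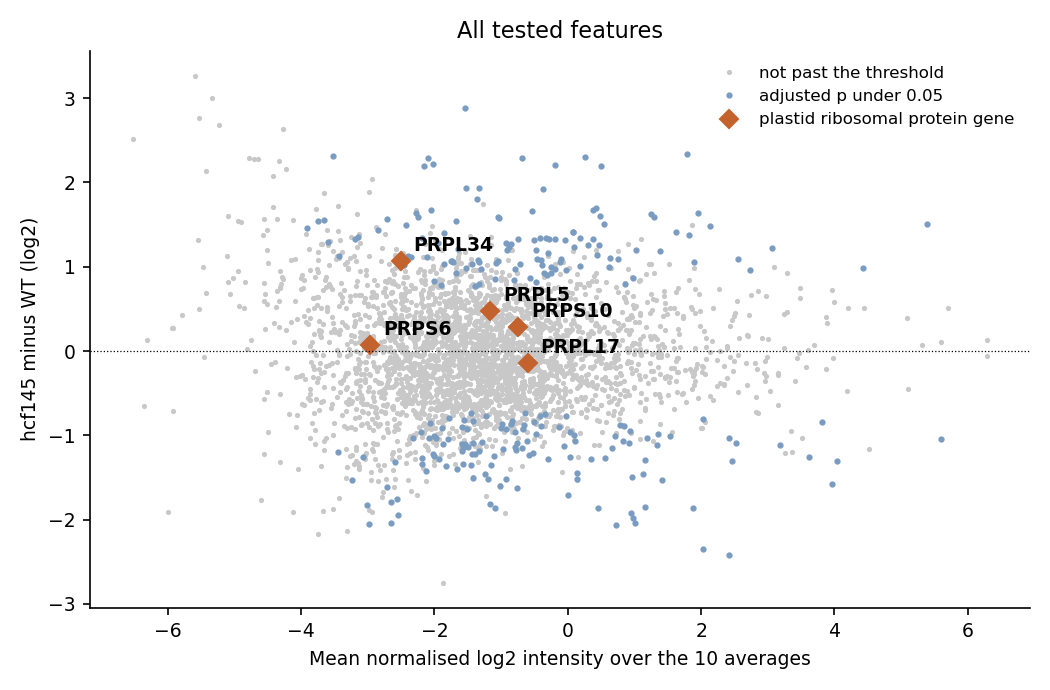
Difference between hcf145 and WT (log2) against mean normalised log2 intensity for the 3287 tested features; blue points have a limma adjusted p under 0.05 and orange diamonds are the plastid ribosomal protein genes. PRPL34, itself not called, lies at 1.06 at the dim end, among features of like size of which some were called and others not. The other 4 lie within the cloud of features that were not called.

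The precision of the 5 genes differed. The mean absolute difference between adjacent arrays was 0.16 for PRPL17, 0.29 for PRPS10, 0.39 for PRPL5, 0.44 for PRPL34 and 0.87 for PRPS6 on the normalised log2 scale. PRPL17 thus had a smaller difference between adjacent arrays than most features (14.1% of them were lower), and PRPS6 a larger one than most (89.9% were lower). Between averages of a group, PRPL5 had the smallest SD, 0.24, and PRPS6 the largest, 0.75. PRPL5 was therefore even across averages but not within pairs.

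**Figure D4:**
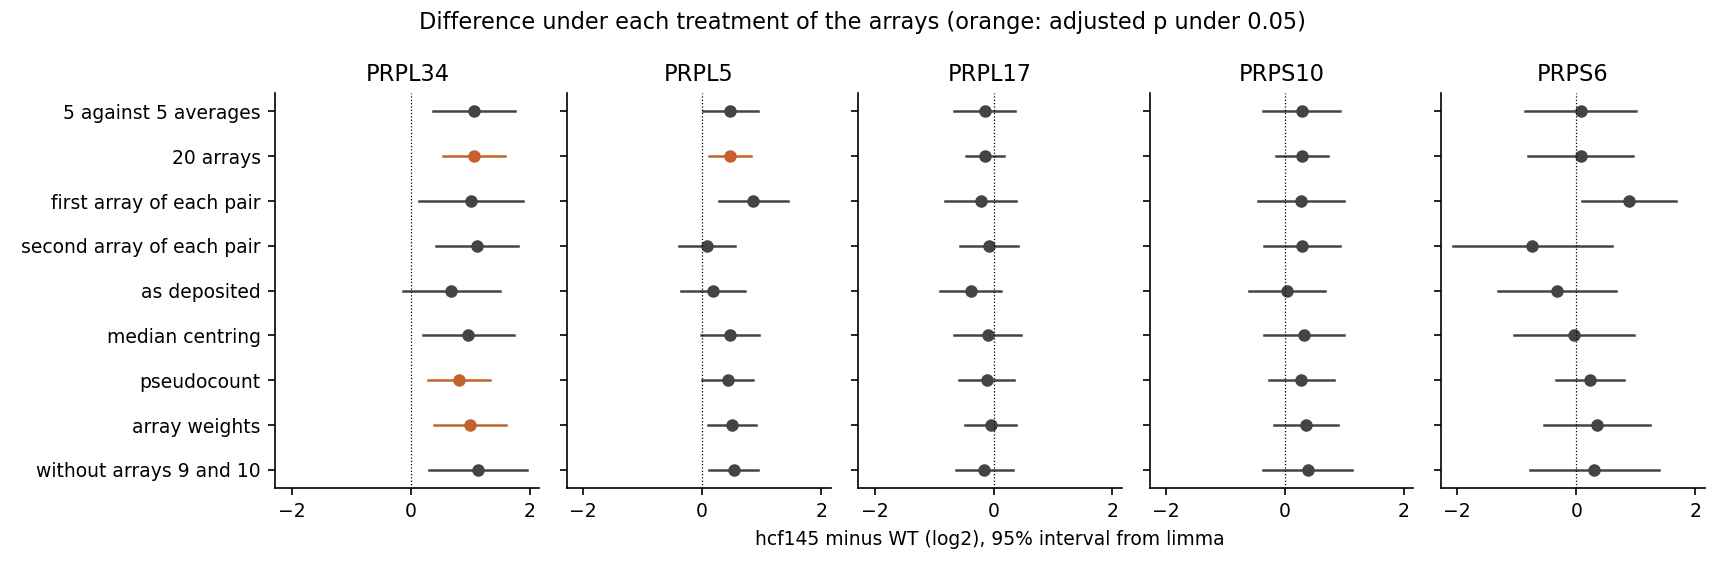
Difference between hcf145 and WT (log2, points) with 95% intervals from limma for each gene, under 9 treatments of the arrays; orange marks a limma adjusted p under 0.05. PRPL34 stays between 0.68 and 1.14 in those shown, PRPL5 runs from 0.08 to 0.86, and PRPS6 crosses 0.

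The rest of the plastid translation apparatus was thinly covered. Of 41 genes listed for plastid ribosomal proteins, 27 of the large and 14 of the small subunit, 6 were the sole gene of a feature. The one beyond the 5 above was AT5G65220, which encodes the plastid form of L29, a protein at the exit of the peptide tunnel. It was listed at 0 on 6 of 10 WT and 9 of 10 hcf145 arrays, reached at most 0.0935 and 0.0458, and was left out of the test. Of 13 plastid translation factors and of psaA, psaB and rps14, none was the sole gene of a feature, and 3 features with several genes held a translation factor and were not named.

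Of 17 factors for plastid ribosome assembly and ribosomal RNA, 3 were the sole gene of a feature, on 4 features of which 3 were tested. In limma 0 of these 3 passed, where 7.39% of all features did, and 2 of the 3 had an unadjusted p under 0.05, where 26.0% of all features did; both belonged to 1 gene. PAC (AT2G48120, PALE CRESS), a protein needed for chloroplast development that acts on plastid ribosomal RNA, had a median intensity of 0.635 in WT and 0.519 in hcf145, and the groups overlapped. Its difference was 0.04 ± 0.24 (SE, limma adjusted p = 0.938). AT2G25870, which encodes a plastid endoribonuclease of the YbeY family, had 2 features that moved apart. The first was at 0.96 ± 0.41 (SE, limma adjusted p = 0.169) and the second at -0.89 ± 0.35 (SE, limma adjusted p = 0.136), so no direction is given for this gene. AT5G46420, the plastid form of the bacterial maturation factor RimM, was above 0 on 4 of 10 arrays in each group and was not tested.

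Only 1 of 8 listed genes of green tissue was the sole gene of a feature, and of 12 listed genes of root, pollen and seed none was. The one measured, LHCB1.5 (AT2G34420), an antenna protein of photosystem II from a family of near-identical genes, ran from 7.90 through a median of 16.4 to 32.8 in WT and from 3.58 through 7.72 to 11.0 in hcf145. Its difference was -1.19 ± 0.39 (SE, limma adjusted p = 0.0840). Its part in the values of the ribosomal protein genes was not tested.

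The pattern of each gene over the 10 averages was set against the other 626 single-gene features with a value in all averages, by the root mean square difference after each feature's mean was removed. The mean removed was over both groups, so the difference between the groups is part of the match and a like difference follows from the choice. Nearest to PRPL34 were AT4G40080 (0.27) and AT5G24690 (0.30), with differences between the groups of 0.92 and 1.04. AT5G24690 passed the test (limma adjusted p = 0.0335) and AT4G40080 did not (limma adjusted p = 0.0586). Nearest to PRPL5 were AT2G39360 (0.15) and AT3G58610 (0.25), the ketol-acid reductoisomerase of branched-chain amino acid synthesis in the plastid, at a difference of 0.71 (limma adjusted p = 0.0530).

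For PRPL17 the nearest features were AT2G18920 (0.20) and AT3G09050 (0.22). For PRPS10 they were PRK (AT1G32060, 0.24), the phosphoribulokinase of the Calvin cycle, and AT2G15440 (0.27). For PRPS6 they were AT1G44830 (0.46) and AT5G40070 (0.47). A distance grows with the gene's own spread over the 10 averages, whose SD was 0.71 for PRPS6 and 0.30 for PRPL17, so distances are not compared between the 5 genes. In no case was another plastid ribosomal protein gene among the nearest 2. The 5 genes are few beside the 626 candidates, so this says little on whether they vary together.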

How the data were processed

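The series holds 10 WT and 10 hcf145 samples of total RNA of Arabidopsis thaliana, each with 1 set of values, called an array here. Whether samples of adjacent number share an extract or a hybridisation is not given. The authors deposited intensity values on a linear scale, a unit read from the values because no label names it. How the authors quantified and scaled them, and the kind of array, are not given in the sources used here. The 692 features with 1 gene in the platform's annotation were looked up in the RefSeq gene table (assembly TAIR10.1) to find their loci, and 690 matched.

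Zeros were treated as missing, the remaining values were log2-transformed and quantile normalised between arrays. A feature needed at least 5 values in each group of 10 arrays, which 152 lacked, and 3287 were tested. Arrays of adjacent number within a group were averaged, since they shared deviations. The resulting 5 against 5 averages were compared with the two-sided moderated test of limma 3.58.1 under R 4.3.3, with the group as the single covariate. Benjamini-Hochberg adjustment was over all 3287 features, at a threshold of 0.05. The fits were checked on simulated data with adjacent arrays correlated as measured. Single genes were also given an exact two-sided permutation test over the 10 averages, for which the smallest possible p is 0.00794.

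Whether array numbers pair the groups was checked by the correlation of same-numbered averages' deviations from their group means. It ran from 0.06 to 0.41, so the limit of over 0.1 for every number was not met and no block was used. All of these correlations were positive, however, and 8 of 10 averages resembled their own number most. The alternatives were other units of replication, scalings, treatments of zeros and dim features, variance models, array weights, the number as a block, and leaving out averages or arrays 9 and 10.

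The 5 genes and the lists were chosen with earlier results of these data known. The genes named besides them are the members of short lists of the plastid translation apparatus and, for each of the 5, the 2 single-gene features of nearest pattern. A list of other ribosomal proteins, to be found by the words ribosomal protein in the RefSeq names, had 0 genes among the single-gene features. Genome coordinates were not used here.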

Additional observations from a re-analysis of the deposited data

How the results depend on the processing

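PRPL34, PRPL5 and PRPS10 kept a difference above 0 and PRPL17 one below 0 under every alternative run for them. PRPL34 passed the threshold with 20 arrays counted separately (1.06, limma adjusted p = 0.00349), with a pseudocount of 0.0653 (0.82, 0.0491), with features that had no missing value (1.06, 0.0443), with array weights (0.99, 0.0344) and with the array number as a replicate block (1.06, 0.0301). A random block for adjacent arrays left it short of the threshold (limma adjusted p = 0.0648). Array numbers are not known to pair the groups, although 8 of 10 averages resembled their own number most, and the block took the count of features from 243 to 500. The exact tests, which are unadjusted, put PRPL34 (1.06) and PRPL5 (0.47) past 0.05. PRPL5 otherwise passed only with 20 arrays (0.47). The count of members past the threshold was 2 with 20 arrays and 1 with the pseudocount, no missing value, the block or the weights.

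PRPS6 reversed to -0.74 with the second arrays, -0.32 as deposited and -0.036 with median centring, and ran from -0.18 to 0.27 leaving 1 average out. The median of the 5 genes, 0.28, was 0.86 with the first arrays, 0.08 with the second and 0.03 as deposited, and leaving 1 average out it ran from 0.13 (without WT arrays 1 and 2) and 0.14 (without hcf145 arrays 7 and 8) to 0.48 (without hcf145 arrays 1 and 2). The median of all features also fell as deposited, from -0.06 to -0.32. Features past the threshold numbered 956 with 20 arrays, 425 with the random block, 153 and 140 with the first and second arrays, 518 with weights, and 47 to 247 leaving 1 average out. The fewest were without WT arrays 7 and 8; without any other WT pair up to 6, or without hcf145 arrays 3 to 8 by pairs, they ran from 88 to 141. As deposited, 18.3% of called features were higher in hcf145, against 48.1% after normalisation and 61.3% with median centring. Leaving out the dimmest 25% of features removed PRPL34 and PRPS6. Where no reason is given here, the cause was not tested.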

Other observations

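In the 10 groups of arrays formed by the 5 genes, 0 had a single array apart from the rest by Dixon's criterion. The low hcf145 arrays 2 and 4 of PRPS6 lay near each other, and in such a case the criterion, which reads the gap to the nearest array, flags neither.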
